A study of Mus musculus with 48 samples.

Results

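The transcripts described here come from the genes that lie beside Per3 on mouse chromosome 4. They are Errfi1, Park7, Tnfrsf9 and Uts2 on the side of lower coordinates, and Vamp3, Camta1, Dnajc11, Thap3, Plekhg5 and Tnfrsf25 on the other. Probes were taken by the RefSeq accession that the array design gives for them, and 14 of the 41174 probes of the array belonged to 9 of the 10 genes. No probe matched Plekhg5. The genes were chosen by position, to ask whether a knock-in at Per3 went along with changes in the transcripts next to it.

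The mice carried, on both copies of Per3, the human exon with the PER3 repeat region in place of the mouse exon, with 5 repeats (Per3 5/5, labelled Boxhill, n = 8) or 4 repeats (Per3 4/4, labelled Coach, n = 8), or were wild type (WT, n = 8). All were adult C57BL/6 mice, housed singly and kept awake for 12 h of the light phase, and no rested mouse was measured. Frontal cortex and hypothalamus of each of the 24 mice were hybridised to 1-colour arrays, 48 in all. The alleles were made in Bruce4 embryonic stem cells of a C57BL/6-Thy1.1 strain, the conditional lines were crossed to mice with ubiquitous Cre driven by the PGK promoter at ROSA26, and Cre was then bred out. WT mice came from the same conditional lines, and each repeat number was represented by 1 targeted line, so repeat number and line cannot be told apart.

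The neighbours of Per3 have little in common beyond their place. Per3 encodes a member of the period family of clock proteins. Vamp3 encodes a vesicle SNARE of recycling endosomes, Camta1 a calmodulin-binding transcription activator that is abundant in brain, Thap3 a zinc finger protein of the THAP family, and Dnajc11 a J-domain protein of mitochondrial membranes. Park7 encodes an oxidative stress sensor that is mutated in a recessive form of Parkinson's disease, and Errfi1 a feedback inhibitor of the epidermal growth factor receptor. Tnfrsf9 and Tnfrsf25 encode receptors of the tumour necrosis factor family that act on T cells, and Uts2 encodes the vasoactive peptide urotensin.

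No flanking gene differed past the threshold between the knock-in lines in either tissue, and neither did any other probe. Against WT, the calls came from Camta1 and Thap3 only. In Per3 4/4 mice they were 3 of 11 flanking probes in cortex and 2 of 10 in hypothalamus, against 22.5% and 15.1% of all probes. In Per3 5/5 mice they were 0 of 11 and 1 of 10, against 12.4% and 18.8%. Camta1 was lower in Per3 4/4 mice in cortex (1.48-fold and 1.38-fold at 2 of its 3 probes) and in hypothalamus, and at 1 probe it was lower in Per3 5/5 hypothalamus. Thap3 was 1.31-fold higher in Per3 4/4 cortex. Park7, Errfi1, Vamp3, Dnajc11, Tnfrsf9 and Tnfrsf25 were not called in any genotype comparison of the main fit, though some of their values passed under other processing. With the day on which an array was scanned as a block, the Camta1 difference in Per3 4/4 cortex was still called and the others were not. In that comparison 7.72% of all probes were called with the block.

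The promoters of Per3, of Camta1 and of Thap3 are shown because Per3 carries the edited exon and the other 2 genes are those with a call. Each line holds the 250 bases before the annotated start, 5′ to 3′ on the strand of the gene, from RefSeq on build GRCm38.p6. Capitals mark TTATGTAA, the D-box letters, which stood in the Per3 promoter only.
Per3, chr4:151044666-151044915, minus strand: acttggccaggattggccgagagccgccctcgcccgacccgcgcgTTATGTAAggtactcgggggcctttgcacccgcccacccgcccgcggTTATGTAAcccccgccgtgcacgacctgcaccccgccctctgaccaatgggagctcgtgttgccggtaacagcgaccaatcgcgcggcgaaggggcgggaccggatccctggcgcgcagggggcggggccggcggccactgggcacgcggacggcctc
Camta1, chr4:151861769-151862018, minus strand: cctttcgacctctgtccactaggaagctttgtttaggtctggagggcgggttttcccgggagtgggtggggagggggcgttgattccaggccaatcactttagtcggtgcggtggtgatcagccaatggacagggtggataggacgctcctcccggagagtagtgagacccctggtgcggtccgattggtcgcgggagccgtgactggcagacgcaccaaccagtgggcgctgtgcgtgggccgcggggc
Thap3, chr4:151988987-151989236, minus strand: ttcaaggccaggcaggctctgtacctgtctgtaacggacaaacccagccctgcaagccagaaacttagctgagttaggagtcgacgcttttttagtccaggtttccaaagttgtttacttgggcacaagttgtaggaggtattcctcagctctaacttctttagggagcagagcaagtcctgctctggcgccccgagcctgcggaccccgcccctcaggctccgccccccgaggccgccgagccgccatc

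Windows from 250 bases before to 50 after the start were given for 9 of the 11 genes (Per3 and its 10 neighbours), 14 windows in all, and for none of Vamp3 and Dnajc11. The E-box letters CACGTG, a site of CLOCK and BMAL1, were in 0 of these 14 windows and in 7.15% of 32851 promoter windows of the mouse genome. The D-box letters were searched on both strands after the Per3 sequence had been seen. They were in 1 of the 14 windows and in 0.938% of all windows, and the Per3 window held both copies, with their first bases at -205 and -158 from the start. The windows of Per3, Camta1 and Thap3 were rich in G and C (73.3%, 68.3% and 58.3%, against a median of 52.7% over all windows) and held 41, 28 and 16 CpG dinucleotides, against a median of 7. No window held both motifs, and a match of letters says nothing of binding.

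Levels are given as the log2 processed signal of a probe minus the log2 of the 75th percentile of its array, so that 0 is the level of the 75th percentile. Levels of different probes are not compared. For a test in a tissue, a probe had to stand well above background in 6 or more of the 8 mice of some genotype, which left 11 flanking probes of 8 genes in cortex and 10 probes of 7 genes in hypothalamus. Differences between genotypes were tested with limma over all probes of the tissue, and a probe was called at a Benjamini-Hochberg adjusted p under 0.05. Both knock-in lines were compared with the same WT arrays. The tissues carried their own markers, with 8 of 8 cortex markers called higher in cortex and 11 of 11 hypothalamus markers called higher in hypothalamus. The arrays were scanned on 3 days that did not hold the genotypes evenly. The WT mice were scanned on day 2 (5 mice) and day 3 (3 mice), Per3 5/5 mice on day 1 (4) and day 3 (4), and those of the 4/4 line on day 1 (4), day 2 (3) and day 3 (1). The 75th percentile itself was lower on knock-in arrays, where its median intensity in cortex was 753 (Per3 4/4) and 894 (Per3 5/5), against 1299.8 for WT.

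Per3, the edited gene, is given for reference. Its probe in cortex spanned -3.83 to -3.13 in WT (median -3.43), -3.54 to -2.53 in Per3 4/4 (median -2.97) and -2.92 to -2.42 in Per3 5/5 mice (median -2.83), and no Per3 5/5 value reached into the WT range. In hypothalamus it spanned -3.82 to -3.38 in WT (median -3.58), -3.92 to -3.01 in Per3 4/4 (median -3.34) and -3.40 to -2.50 in Per3 5/5 mice (median -3.18). Per3 was called higher in Per3 5/5 than in WT mice in both tissues and in Per3 4/4 than in WT mice in cortex, and in none of these with scan day as a block. The place of this probe within the transcript is not given in the sources used here.

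There were 4 member probes too dim to test in at least 1 tissue, and a level is then only a bound. Uts2 was well above background on 1 of 48 arrays, a Per3 4/4 hypothalamus. The Tnfrsf9 probe A_52_P75441 was well above background on none of 48 arrays. The other Tnfrsf9 probe, A_52_P210511, was well above background in cortex on 5 WT, 3 Per3 4/4 and 6 Per3 5/5 arrays of 8 each, and in hypothalamus on 1 array of each genotype. The Tnfrsf25 probe A_51_P178561 was well above background in cortex on 4 WT, 2 Per3 4/4 and 3 Per3 5/5 arrays, and in hypothalamus on 1 WT array.

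**Figure D1:**
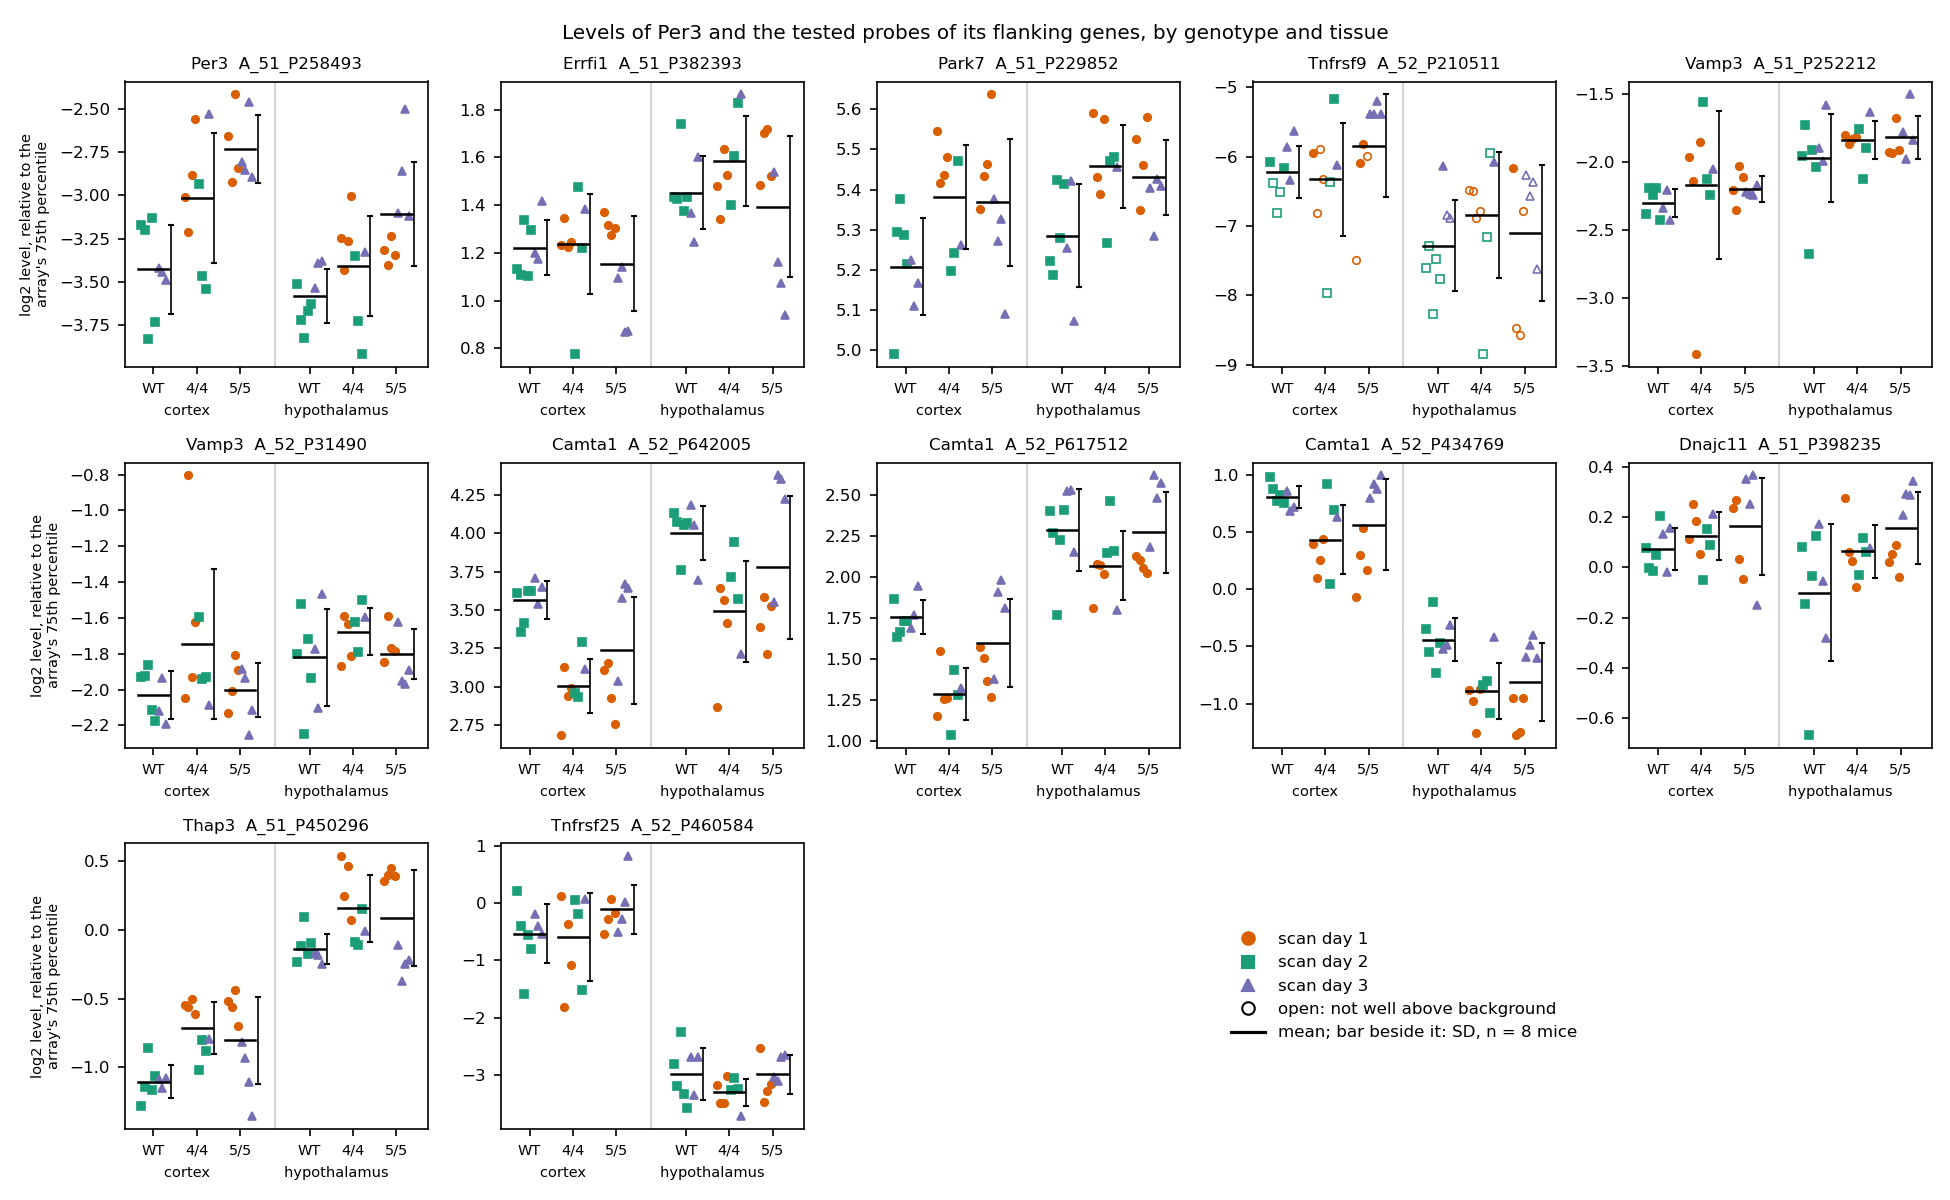
Log2 level of Per3 and of each tested flanking probe (y axis, relative to the 75th percentile of the array) by genotype (WT, then the 4/4 line, then the 5/5 line), in cortex and in hypothalamus. Each point is 1 mouse with its shape set by scan day, open where the spot was not well above background, and the bar is the mean with the SD of 8 mice. The 8 Per3 4/4 cortex values of Camta1 A_52_P642005 (2.68 to 3.29) lie below all 8 WT values (3.36 to 3.71).

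Camta1 was read by 3 probes, of which A_52_P434769 is tied to another transcript record than A_52_P642005 and A_52_P617512. In cortex, A_52_P642005 lay between 3.36 and 3.71 in WT mice (median 3.62), between 2.76 and 3.67 in Per3 5/5 mice (median 3.13) and between 2.68 and 3.29 in Per3 4/4 mice (median 2.98). A_52_P617512 lay between 1.63 and 1.94 in WT (median 1.73), between 1.27 and 1.98 in Per3 5/5 (median 1.54) and between 1.03 and 1.55 in Per3 4/4 mice (median 1.27). At both of these probes every Per3 4/4 mouse lay below every WT mouse, while Per3 5/5 mice overlapped both other groups. A_52_P434769 lay between 0.69 and 0.98 in WT (median 0.79), between -0.06 and 0.995 in Per3 5/5 (median 0.67) and between 0.05 and 0.92 in Per3 4/4 mice (median 0.42), and the 3 genotypes overlapped.

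In Per3 4/4 cortex, 3 of 11 flanking probes were called against WT, where 22.5% of all 29715 probes were called (13.4% higher, 9.14% lower). The log2 difference was -0.56 at A_52_P642005 (95% CI -0.81 to -0.32, adjusted p = 0.00318, limma) and -0.47 at A_52_P617512 (95% CI -0.67 to -0.27, adjusted p = 0.00297, limma). Groups that did not overlap were found at 6.70% of all probes in this comparison. At A_52_P434769 the log2 difference was -0.37 with an adjusted p of 0.0620 (limma), which did not pass. With scan day as a block the differences were -0.41 at A_52_P642005 (adjusted p = 0.0263) and -0.40 at A_52_P617512 (adjusted p = 0.0233), and 7.72% of all probes were called. On scan day 2 alone, with 3 Per3 4/4 and 5 WT mice, they were -0.47 (adjusted p = 0.0817) and -0.48 (adjusted p = 0.0719). Of these Per3 4/4 mice, replicates 6 and 7 were on slide 5, which held no WT array. The 75th percentile of their cortex arrays was 324 and 432, against 973 or more on WT arrays. Genotype, slide and array intensity cannot be told apart for them.

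Against WT, no flanking probe of 11 was called in Per3 5/5 cortex by limma, where 12.4% of all probes were called, although 3 had an unadjusted p under 0.05. The smallest adjusted p, 0.0658, was that of Camta1 A_52_P642005 (log2 difference -0.33, 95% CI -0.57 to -0.09), and with scan day as a block none was called either, against 0.986% of all probes. At A_52_P617512 the log2 difference was -0.15 (95% CI -0.35 to 0.05), and at A_52_P434769 it was -0.24 (95% CI -0.54 to 0.05). Leaving out Per3 5/5 replicate 6, 7 or 8 brought 1, 2 and 3 flanking probes past the threshold, while 14.4%, 13.5% and 19.2% of all probes were called.

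In hypothalamus, A_52_P642005 lay between 3.69 and 4.19 in WT (median 4.06), between 3.22 and 4.38 in Per3 5/5 (median 3.57) and between 2.87 and 3.94 in Per3 4/4 mice (median 3.57). A_52_P434769 lay between -0.73 and -0.11 in WT (median -0.48), between -1.28 and -0.40 in Per3 5/5 (median -0.77) and between -1.26 and -0.42 in Per3 4/4 mice (median -0.87). A_52_P617512 lay between 1.76 and 2.53 in WT, between 2.02 and 2.62 in Per3 5/5 and between 1.80 and 2.46 in Per3 4/4 mice. All groups overlapped here, though 6 of 8 Per3 4/4 mice at A_52_P642005 and 7 of 8 at A_52_P434769 were below every WT mouse.

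Both calls in Per3 4/4 hypothalamus, 2 of 10 flanking probes against 15.1% of 30735 probes (6.81% lower), were of Camta1. The log2 difference was -0.51 at A_52_P642005 (adjusted p = 0.0417, limma) and -0.45 at A_52_P434769 (adjusted p = 0.0273, limma). In Per3 5/5 hypothalamus, 1 of 10 was called against 18.8% of all probes (8.55% lower), Camta1 A_52_P434769 with a log2 difference of -0.37 (SE 0.131, adjusted p = 0.0495, limma). These hypothalamus calls were near the threshold. None was called with scan day as a block (log2 differences -0.28, -0.26 and -0.26, adjusted p = 0.340, 0.194 and 0.199, against 0.745% of all probes called for Per3 4/4 and 2.10% for Per3 5/5). The Per3 4/4 call at A_52_P642005 was kept when Per3 4/4 replicate 5 or 6 or WT replicate 3 or 8 was left out and lost for each of the other 12 mice. The call in Per3 5/5 was kept without Per3 5/5 replicate 5, 6, 7 or 8 or WT replicate 4 and lost for each of the other 11, and that of A_52_P434769 in Per3 4/4 was lost without Per3 4/4 replicate 1 or 3 or WT replicate 1. In the same tissue, all 6 oligodendrocyte markers were called higher in Per3 4/4 than in WT mice and 3 of 6 in Per3 5/5 mice (mean log2 level of the list 4.09 to 4.58, 3.88 to 4.28 and, in WT, 3.66 to 4.15), and 2 of 6 striatum markers were called higher in each line. In Per3 5/5 hypothalamus, 4 of 4 neutrophil markers (mean log2 level -7.86 to -3.73, against -4.73 to -1.93 in WT) and 2 of 6 choroid plexus markers (-2.33 to -1.64, against -1.60 to -0.90) were called lower, as was 1 neutrophil marker in Per3 4/4. Of 5 neuron markers, 2 were called higher in Per3 5/5 and 1 in Per3 4/4 hypothalamus, and none lower. Of 5 astrocyte markers, 2 were called higher and 1 lower in Per3 5/5, and 1 higher in Per3 4/4. Some other lists held calls too. In Per3 4/4 cortex no neuron, astrocyte or oligodendrocyte marker was called, and of 8 cortex markers 1 was higher and 2 lower. The part of these lists in the Camta1 difference was not tested. In tissue RNA, fewer cells of a type and less RNA per cell cannot be told apart.

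**Figure D2:**
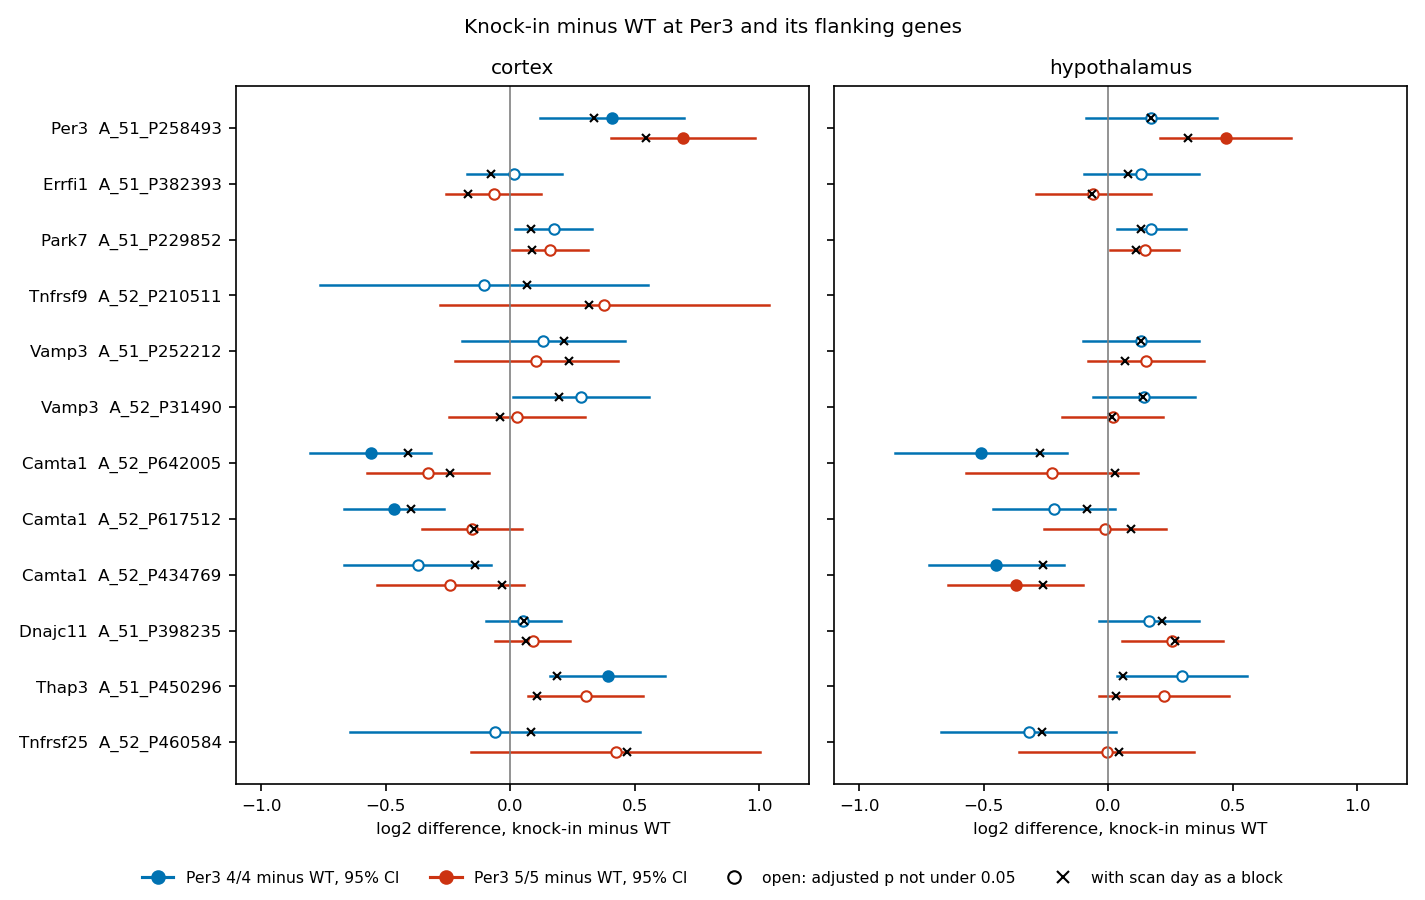
Log2 difference between each knock-in line and WT (x axis) for Per3 and the tested flanking probes in cortex and hypothalamus, with 95% confidence intervals. Filled points were called at an adjusted p under 0.05, open points were not, and crosses give the difference with scan day as a block. The largest flanking difference against WT is that of Camta1 A_52_P642005 in Per3 4/4 cortex, -0.56, and -0.41 with the block.

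Thap3 was read by 1 probe. In cortex it lay between -1.28 and -0.86 in WT (median -1.11), between -1.36 and -0.44 in Per3 5/5 (median -0.76) and between -1.02 and -0.50 in Per3 4/4 mice (median -0.70). In hypothalamus it lay between -0.25 and 0.10 in WT (median -0.17), between -0.37 and 0.45 in Per3 5/5 (median 0.13) and between -0.11 and 0.54 in Per3 4/4 mice (median 0.11). The groups overlapped in both tissues, and the SD between mice in cortex was 0.12 for WT, 0.19 for Per3 4/4 and 0.32 for Per3 5/5.

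Thap3 was called higher in Per3 4/4 than in WT cortex, by 0.39 (95% CI 0.16 to 0.62, adjusted p = 0.0161, limma), with 6 of 8 Per3 4/4 mice above every WT mouse. In the other 3 comparisons with WT the log2 difference was 0.30 in Per3 5/5 cortex (adjusted p = 0.0722), 0.30 in Per3 4/4 hypothalamus (adjusted p = 0.103) and 0.22 in Per3 5/5 hypothalamus (adjusted p = 0.210), none of which passed. With scan day as a block the difference in Per3 4/4 cortex was 0.19 (adjusted p = 0.163), and under median centring of the arrays it was 0.33 (adjusted p = 0.0899). Thap3 passed in Per3 4/4 hypothalamus under the methods' t-test (adjusted p = 0.0391) and with the replicate number as a block (0.0463), and with that block in Per3 5/5 cortex (0.0495).

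Within 1 genotype, Camta1 and Thap3 also differed between scan days. In Per3 5/5 hypothalamus, the 4 mice of day 1 had Thap3 levels of 0.36 to 0.45 and the 4 mice of day 3 levels of -0.37 to -0.11. This difference of 0.64 had an adjusted p of 0.00499 (limma). Camta1 went the other way, with day 1 below day 3 by a log2 difference of -0.70 at A_52_P642005 (adjusted p = 0.0302), -0.39 at A_52_P617512 (adjusted p = 0.0346) and -0.59 at A_52_P434769 (adjusted p = 0.0137). Errfi1 (0.43, adjusted p = 0.0496) and Dnajc11 (-0.25, adjusted p = 0.0490) were called there too, which made 6 of 10 flanking probes against 30.3% of all probes.

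In Per3 5/5 cortex, the day 1 mice had Thap3 levels of -0.70 to -0.44 and the day 3 mice levels of -1.36 to -0.81, with no overlap but an adjusted p of 0.0634 (limma). In this comparison 4 of 11 flanking probes did not overlap, against 19.6% of all probes. Only Camta1 A_52_P434769 was called between these days in cortex (-0.66, adjusted p = 0.0341), 1 of 11 against 6.10% of all probes. The 4 Per3 4/4 mice of day 1 had Thap3 levels close to those of Per3 5/5 mice of the same day, -0.61 to -0.50 in cortex. No flanking probe was called by limma between day 1 and day 2 in Per3 4/4 mice (1.44% of all probes in cortex and 1.43% in hypothalamus) or between day 2 and day 3 in WT mice (0.104% and 0). No WT mouse was scanned on day 1, and for that day genotype and scan day cannot be told apart. The mice were sleep deprived in groups of mixed genotype, and whether scan days followed those groups is not given in the sources used here.

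**Figure D3:**
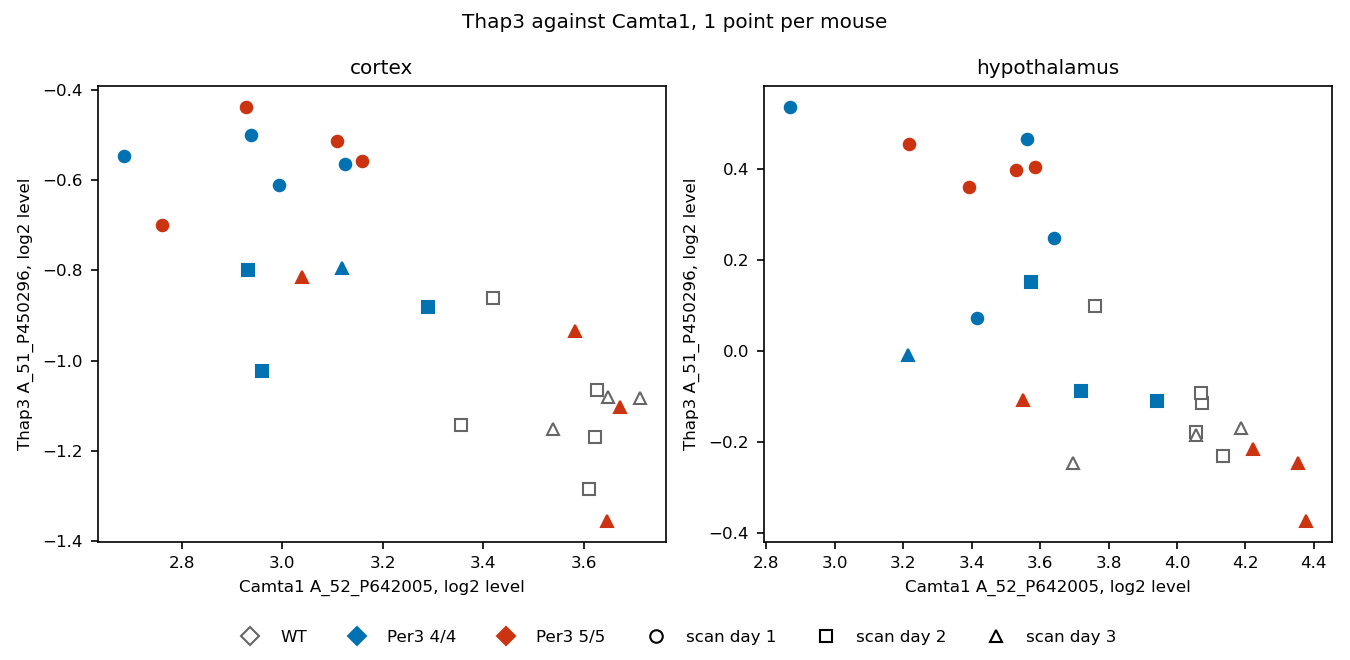
Thap3 (y axis, log2 level) against Camta1 A_52_P642005 (x axis, log2 level) in cortex and hypothalamus, 1 point per mouse, with colour for genotype and shape for scan day. Mice with lower Camta1 had higher Thap3 levels, and the Per3 5/5 mice of day 1 (hypothalamus Thap3 0.36 to 0.45) stand apart from those of day 3 (-0.37 to -0.11).

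Across the 24 mice, with each tissue centred on its own mean and both tissues of a mouse averaged, Thap3 had a Pearson r of -0.86 with Camta1 A_52_P642005, -0.75 with A_52_P617512 and -0.86 with A_52_P434769. Park7 had an r of 0.80 with Thap3 and -0.72 with A_52_P642005. The 3 Camta1 probes had r of 0.92, 0.70 and 0.54 with each other. Per3 had r between -0.21 and 0.20 against the Camta1 probes and Thap3. Against the same probes Vamp3 A_51_P252212 had r between -0.22 and 0.05 and Dnajc11 between -0.15 and 0.24. The other Vamp3 probe, A_52_P31490, had r of -0.37, -0.41 and -0.42 with the Camta1 probes and 0.32 with Thap3. Errfi1 had r of -0.56, -0.56 and -0.44 with the Camta1 probes and 0.57 with Thap3. For Tnfrsf25 A_52_P460584 these were 0.23, 0.34, 0.33 and -0.33. The r of Per3 was 0.51 with Dnajc11, 0.45 with Vamp3 A_51_P252212 and -0.02 with Vamp3 A_52_P31490. These values describe mice that share genotype, slide and scan day, and carry no test.

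The genes whose profile over these 24 mice was most like that of Camta1 A_52_P642005 were Aftph (r = 0.96), Dnm3 (r = 0.96) and Map4 (r = 0.94), on chromosomes 11, 1 and 9. Those most like Thap3 were Exosc4 (r = 0.97), Mul1 (r = 0.96) and Ctsa (r = 0.96), on chromosomes 15, 4 and 2. None of them is a neighbour of Per3.

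The other flanking genes showed no called genotype difference in the main fit. Park7 lay in cortex between 4.99 and 5.38 in WT (median 5.22), between 5.09 and 5.64 in Per3 5/5 (median 5.36) and between 5.20 and 5.55 in Per3 4/4 mice (median 5.43). In hypothalamus it lay between 5.07 and 5.42 in WT, between 5.28 and 5.58 in Per3 5/5 and between 5.27 and 5.59 in Per3 4/4 mice. The ranges overlapped in both tissues, and no adjusted p passed the threshold.

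Errfi1 lay between 0.78 and 1.48 over all 24 cortex arrays and between 0.94 and 1.86 over all hypothalamus arrays, and its median in cortex was 1.19 for WT, 1.21 for Per3 5/5 and 1.24 for Per3 4/4. Vamp3 A_52_P31490 had cortex medians of -2.02 (WT), -1.97 (Per3 5/5) and -1.93 (Per3 4/4), and Vamp3 A_51_P252212 of -2.29, -2.21 and -2.09. Both Vamp3 probes, which read the nearest gene on that side of Per3, overlapped between all genotypes in both tissues.

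Dnajc11, the 1 member printed many times on the array, has 10 spots per array, of which 8 to 10 were used after outlier spots were left out. The pooled SD between its spots was 0.07 in both tissues, against an SD between mice of a genotype of 0.13 in cortex and 0.19 in hypothalamus, so spots of 1 array were closer together than mice were. Its cortex medians were 0.06 (WT), 0.25 (Per3 5/5) and 0.13 (Per3 4/4), and the ranges overlapped.

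Tnfrsf25 A_52_P460584 lay in cortex between -1.58 and 0.21 in WT, between -0.55 and 0.81 in Per3 5/5 and between -1.82 and 0.12 in Per3 4/4 mice. Tnfrsf9 A_52_P210511 lay near background, between -6.81 and -5.62 in WT, between -7.49 and -5.19 in Per3 5/5 and between -7.97 and -5.17 in Per3 4/4 cortex. The groups overlapped at both.

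For the 6 probes of Errfi1, Park7, Vamp3, Dnajc11 and Tnfrsf25, log2 differences from WT in cortex were between -0.07 and 0.42 for Per3 5/5. For Per3 4/4 they were between -0.06 and 0.29. In hypothalamus they were between -0.06 and 0.26, and between -0.32 and 0.17. Tnfrsf9 A_52_P210511 was tested in cortex only through the Per3 5/5 mice (6 of 8 arrays well above background). Its differences, 0.38 and -0.11, thus carry no weight, though it stays among the 11 cortex probes counted. Over all flanking probes tested, the median absolute difference from WT in cortex was 0.16 for the 5/5 line and 0.17 for the 4/4 line, beside 0.19 and 0.20 over all probes. In hypothalamus it was 0.15 and 0.20, beside 0.22 and 0.21.

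The knock-in lines were also compared with each other, since only the repeat number differs by design between these alleles. None of 11 flanking probes in cortex and none of 10 in hypothalamus was called by limma, and 0 of all probes were called in either tissue. At an unadjusted p under 0.05 there was 1 flanking probe in cortex and 0 in hypothalamus. That probe was Camta1 A_52_P617512, with a log2 difference of 0.31 (95% CI 0.11 to 0.51, adjusted p = 0.285). At A_52_P642005 the difference was 0.23 in cortex (95% CI -0.01 to 0.48) and 0.29 in hypothalamus (95% CI -0.06 to 0.63). For Thap3 it was -0.09 in cortex (95% CI -0.32 to 0.14) and -0.07 in hypothalamus (95% CI -0.34 to 0.19). These intervals do not show that the alleles act alike.

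The view was then widened to the 20 tested genes on each side of Per3, with the brightest tested probe of each gene. These 40 genes hold 8 of the flanking genes in cortex and 7 in hypothalamus. In cortex, 8 of 40 were called in Per3 5/5 against WT, where 11.6% of all 15398 genes were called (7.11% higher, 4.49% lower), and all 8 were higher. In Per3 4/4 cortex, 10 of 40 were called, 8 higher and 2 lower, against 23.2% of all genes (12.8% higher, 10.4% lower). In hypothalamus, 11 of 40 were called in each line, 9 higher and 2 lower, against 20.5% of 15924 genes for Per3 5/5 (9.66% higher, 10.9% lower) and 16.7% for Per3 4/4 (8.18% higher, 8.50% lower). The median log2 difference of the 40 genes in cortex was 0.15 in both lines, beside 0.02 over all genes. With scan day as a block it was 0.087 (Per3 5/5) and 0.078 (Per3 4/4), beside 0.0043 and 0.0044 over all genes. Under median centring it was 0.037 and 0.090, but the median over all genes moved down too, to -0.095 and -0.043. In hypothalamus the median of the 40 genes in the main fit was 0.022 for Per3 5/5 and 0.15 for Per3 4/4. Over all genes it was -0.017 and 0.016 there. With scan day as a block, 2 and 7 of 40 were called in cortex and 2 and 1 in hypothalamus, against 0.682%, 7.40%, 2.44% and 0.841% of all genes. Under median centring, the cortex calls in Per3 5/5 were 3 higher and 1 lower.

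Nearer and further genes were counted apart, with no test between them. Of the 20 genes nearest to Per3, 3 were called in Per3 5/5 cortex and 5 in Per3 4/4 cortex, and of the 20 genes further out 5 and 5. In hypothalamus the nearest 20 held 5 and 6 calls and the outer 20 held 6 and 5. With scan day as a block, the nearest 20 held 2 and 4 calls in cortex and the outer 20 held 0 and 3. On the rest of chromosome 4, 12.0% and 23.3% of 905 genes were called in cortex, close to the share over all genes.

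There were 6 neighbours in cortex and 9 in hypothalamus that were called with 1 sign in both lines, against 7.88% and 9.98% of all genes, and none of them was one of the 10 flanking genes. Both counts use the same WT arrays. Of these, 6 genes were named by a rule of size, with Per3 5/5 values first. Gpr153, an orphan receptor (0.50 and 0.54 in cortex, 0.42 and 0.44 in hypothalamus), Tmem201, an inner nuclear membrane protein (0.41 and 0.51, 0.39 and 0.48), Icmt, the enzyme that methylates prenylated proteins (0.40 and 0.50, 0.32 and 0.34), and Kcnab2, a subunit of voltage-gated potassium channels (0.29 and 0.28, 0.59 and 0.45), were called in both tissues. Spsb1, a substrate adaptor of ubiquitin ligases (0.36 and 0.37), and Pex14, a peroxisome import protein and the only one that was lower (-0.72 and -0.69), were called in hypothalamus. With scan day as a block, Kcnab2 in hypothalamus was the only one of the 6 called in both lines. Outside these 6, the block left Rere called higher in both lines in cortex (0.31 and 0.32, adjusted p = 0.0375 and 0.00817, limma). Rere lies 4 tested genes from Per3 there. Slc25a33, 9 tested genes away, was called lower in cortex with the block only (-0.32 and -0.24, adjusted p = 0.0482 and 0.0436, limma). With the same block, Gpr153, Tmem201 and Icmt in cortex were called in Per3 4/4 but not in Per3 5/5 mice (adjusted p = 0.0593, 0.121 and 0.101), and Pex14 was at -0.34 and -0.36 (adjusted p = 0.0902 and 0.0828). Pex14 and Kcnab2 lie at the outer edges of the 40 genes, 20 tested genes from Per3 on either side.

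**Figure D4:**
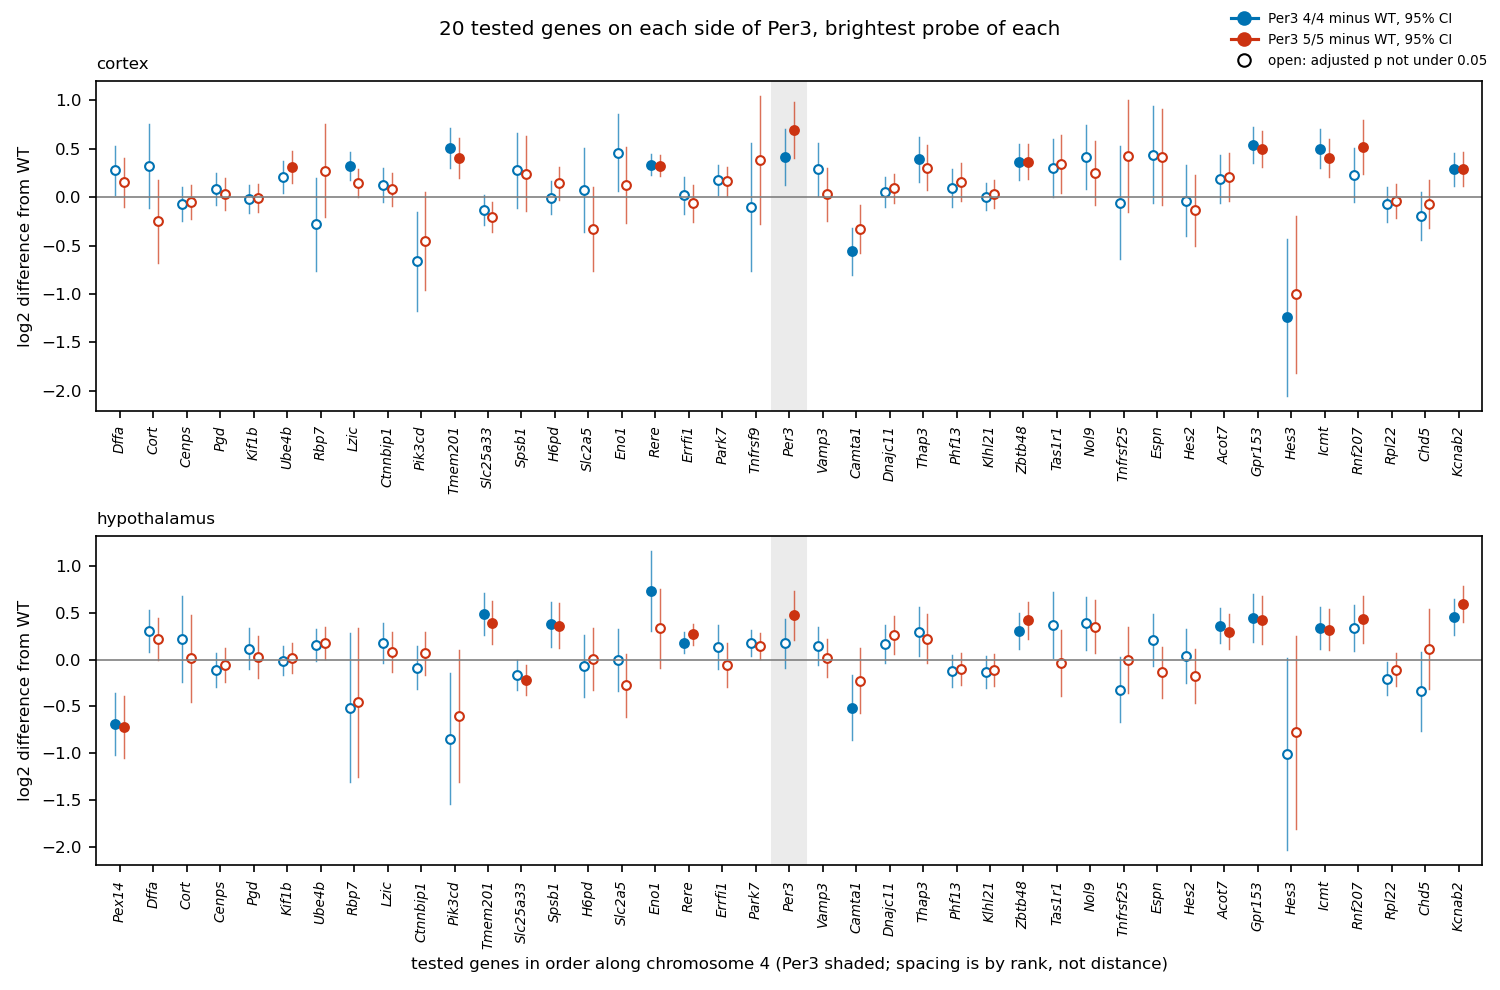
Log2 difference of each knock-in line from WT (y axis) for the 20 tested genes on each side of Per3, in their order along chromosome 4 (x axis, spaced by rank), in cortex and hypothalamus. Filled points were called at an adjusted p under 0.05. In cortex the 8 genes called in Per3 5/5 mice are all higher than in WT, and the 2 lower calls are in Per3 4/4 mice.

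The levels of most flanking genes differed between the tissues. Of 11 flanking probes, 9 were called between hypothalamus and cortex, 6 higher and 3 lower in hypothalamus, where 67.8% of all 31228 probes were called (35.4% higher, 32.4% lower). Among the 3 lower, Tnfrsf9 A_52_P210511 passed the filter only through Per3 5/5 cortex, with 6 of 8 arrays well above background. Its place in this count was thus largely set by the filter and carries no weight. Tnfrsf25 A_52_P460584 lay between -3.71 and -2.24 over all hypothalamus arrays and between -1.82 and 0.81 over all cortex arrays, 6.40-fold lower in hypothalamus (log2 difference -2.68, SE 0.137) and lower in 24 of 24 mice. Of the 6 T cell markers tested, 2 were called higher in hypothalamus and 1 in cortex. Thap3 was 1.88-fold higher in hypothalamus (0.91, SE 0.0691) in 24 of 24 mice. The SEs given for tissue differences, here and for Camta1 below, are from the fit without the mouse. With the mouse as a block the SE was 0.0332 for Thap3 and 0.138 for Tnfrsf25 A_52_P460584.

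Vamp3 was higher in hypothalamus by 0.34 at A_51_P252212 (22 of 24 mice) and by 0.16 at A_52_P31490 (18 of 24), and Errfi1 by 0.27 (23 of 24). Tnfrsf9 A_52_P210511 was lower by a log2 difference of -0.94, with 3 mice of 24 higher, but its hypothalamus signal was not well above background on 21 of 24 arrays, so the size is not fixed. A fit with scan day within tissue gave the tissue difference at scan day 1 only, a day without a WT mouse. Both tissues of a mouse were scanned on the same day, so this is not a tissue difference corrected for day. At that day Vamp3 A_52_P31490 (0.043, adjusted p = 0.815, limma), Errfi1 (0.22, 0.0912) and Tnfrsf9 (-0.76, 0.0880) were not called. Vamp3 A_52_P31490 was not called under median centring (0.084), quantile normalization (0.10) or normexp (0.098) either. Park7 (0.07, 17 of 24 mice higher) and Dnajc11 (-0.08, 8 of 24 mice higher) did not pass. With the mouse as a block, Park7 passed as well (adjusted p = 0.0397, limma), which made 10 of 11 against 73.6% of all probes. Park7 was called under quantile normalization (0.15, adjusted p = 0.000124) and not under median centring (-0.0039), and Dnajc11 was called under median centring (-0.16, adjusted p = 0.00783). Median centring differs from the main scaling by a constant on each array. It thus moved the tissue differences of Vamp3 A_52_P31490, Park7 and Dnajc11 down alike, and these are not separate changes.

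The Camta1 probes parted by tissue. A_52_P642005 was higher in hypothalamus by 0.49 (SE 0.0846) and A_52_P617512 by 0.66 (SE 0.0624), each in 24 of 24 mice. A_52_P434769 was lower there by a log2 difference of -1.32 (SE 0.0799), also in 24 of 24 mice. Within a mouse, the tissue difference of A_52_P642005 exceeded that of A_52_P434769 by 1.81 ± 0.37 (SD, n = 24, range 1.08 to 2.52), and that of A_52_P617512 exceeded it by 1.98 ± 0.43. In a two-sided permutation test within mice (100000 resamples), both gave p = 2e-05, the smallest it can give, and 3e-05 after adjustment over the 3 pairs of probes. The tissue differences of A_52_P617512 and A_52_P642005 were themselves apart by 0.17 ± 0.21 (19 of 24 mice, permutation p = 6.6e-04).

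No flanking probe of 11 had a genotype by tissue interaction in limma, for Per3 5/5 against WT (0.0160% of all probes called), Per3 4/4 against WT (0.00320%) or Per3 5/5 against Per3 4/4 (0). None had an unadjusted p under 0.05 in this fit, which leaves out that both tissues come from the same mouse. None was called with the mouse as a block either, where 0.00961% of all probes were called for Per3 5/5 against WT. Unadjusted p was not counted with that block. The interaction of Camta1 A_52_P617512 in Per3 4/4 mice, where cortex was called and hypothalamus was not, was 0.25 (95% CI -0.06 to 0.56, SE 0.153). That interval is from the fit without the mouse. With the mouse as a block the SE of this interaction was smaller, 0.107 (adjusted p = 0.925, limma).

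**Figure D5:**
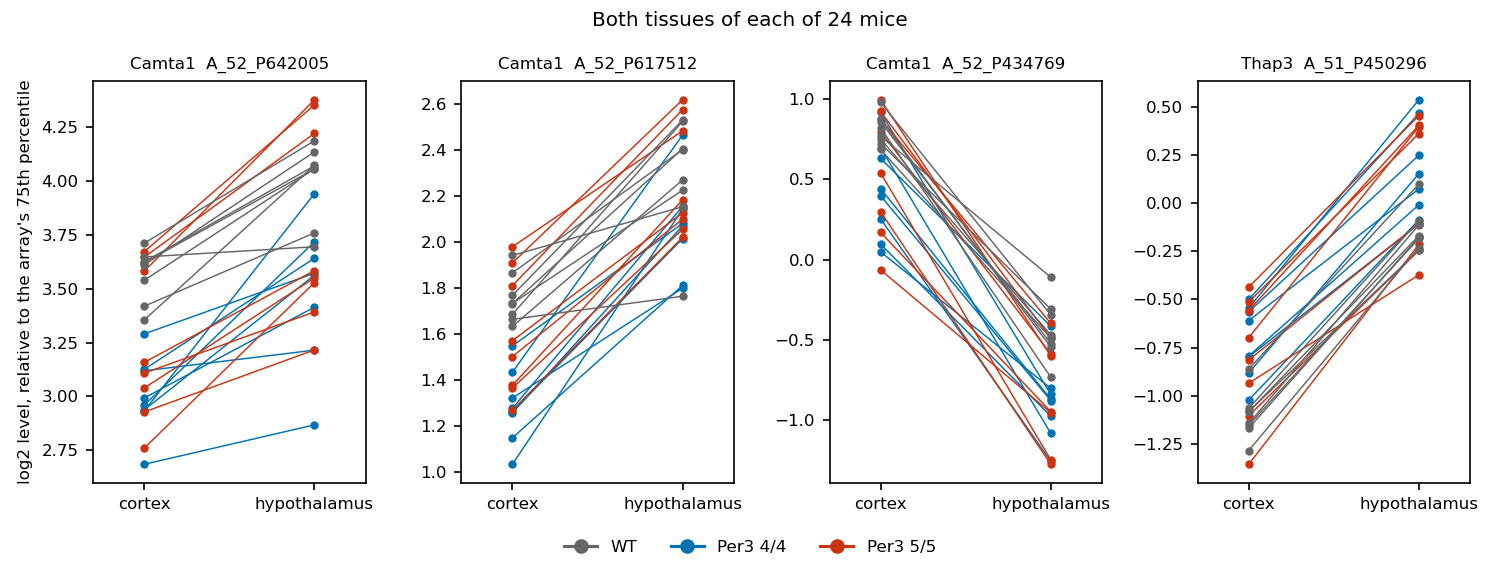
Log2 level (y axis) of the 3 Camta1 probes and of Thap3 in cortex and hypothalamus (x axis), with a line for each of 24 mice in the colour of its genotype. Camta1 A_52_P642005, A_52_P617512 and Thap3 go up to hypothalamus in 24 of 24 mice, and Camta1 A_52_P434769 goes down in 24 of 24.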

How the data were processed

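RNA of frontal cortex and hypothalamus from 24 separate mice was measured on 48 Agilent 1-colour arrays. Per the file headers, the authors extracted spot intensities with Agilent Feature Extraction 10.7.1.1, and the deposited processed intensity is background-corrected. The deposited value table of the series holds log2 values processed by the authors and was used as an alternative only.

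From each file, control spots were left out, 48 to 172 outlier spots per array were set missing, and the log2 processed signal was centred on the 75th percentile of its array. Spots of 1 probe were averaged. Probes that stood well above background in 6 or more of the 8 mice of some genotype were fitted in limma 3.58.1 (R 4.3.3), per tissue for genotypes and jointly for tissues, with Benjamini-Hochberg adjustment over all probes. The fit was tested on simulated data. Precision is limited by the number of arrays. Names and gene order came from RefSeq accessions on GRCm38.p6, and promoters from the same build.

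The members and lists were chosen with earlier results of these data known. All 10 flanking genes with every probe and Per3 were named. Of the 40 neighbours that were not members, those called with 1 sign in both lines were named, at most 6 genes, by the smaller absolute difference. Rere and Slc25a33 were named for their cortex calls with scan day as a block. For the members with most calls, the 3 genes of highest correlation were named. The comparison of Camta1 probes and the D-box search were chosen after seeing the data. Both tissues of a mouse share a label, and also a slide and a scan day. Their deviations correlated at 0.109 to 0.688. The same mouse was the best match for 5 of 8 Per3 5/5, 4 of 8 Per3 4/4 and 5 of 8 WT mice. Mouse, slide and scan day cannot be told apart in these correlations. Alternatives were scan day and slide as blocks, other scalings and background correction, no filter, the methods' t-test and leaving out each mouse.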

Additional observations from a re-analysis of the deposited data

Results flagged for a closer look

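In 7 of 69 groups of 8 mice, the highest or lowest value lay far from the others, where chance flags about 1 in 20 groups. In cortex, Tnfrsf25 A_52_P460584 was at 0.81 in Per3 5/5 replicate 8 (next 0.06), and Tnfrsf9 A_52_P210511 at -7.49 in Per3 5/5 replicate 1 (next -6.09). Vamp3 A_51_P252212 was at -3.41 in Per3 4/4 replicate 3 (next -2.24), and Vamp3 A_52_P31490 at -0.80 in Per3 4/4 replicate 2 (next -1.60). Errfi1 was at 0.78 in Per3 4/4 replicate 5 (next 1.22). In hypothalamus, WT replicate 3 was the distant mouse at Thap3 (0.10, next -0.09) and at Vamp3 A_51_P252212 (-2.68, next -2.04).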

How the results depend on the processing

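Counts are given against WT. With scan day as a block, the flanking calls were 0 in hypothalamus in both lines, the neighbour calls were 2 in Per3 5/5 cortex, 2 in Per3 5/5 and 1 in Per3 4/4 hypothalamus, Per3 was 0.54 (adjusted p = 0.0839) and 0.34 (0.175) in Per3 5/5 and Per3 4/4 cortex and 0.32 (0.156) in Per3 5/5 hypothalamus, and in Per3 5/5 hypothalamus Camta1 turned to 0.026 at A_52_P642005 and 0.093 at A_52_P617512. With slide as a fixed block, and equally within 1 scan day, all counts of flanking and neighbour calls were 0, where 0 of all probes were called by slide and 0.00325% to 0.552% by day. The Camta1 differences in Per3 4/4 cortex were -0.63 at A_52_P642005 and -0.53 at A_52_P617512 by slide. Per3 was then 1.05, 0.84 and 0.15 by slide and 0.69, 0.10 and 0.54 by day in the same order. Per3 4/4 and WT mice shared only slides 4 and 6, and Per3 5/5 and WT mice shared none, so the values by slide against WT rest on few mice. In the comparison of the knock-in lines, both settings turned Thap3 to 0.0032 and 0.073, Camta1 A_52_P434769 to -0.062 and -0.11 (cortex, hypothalamus) and Per3 to -0.088 in hypothalamus. Within 1 day, Camta1 A_52_P434769 in Per3 5/5 cortex (0.14) and, in Per3 5/5 hypothalamus, A_52_P642005 (0.15), A_52_P617512 (0.063) and Thap3 (-0.036) also turned, as did A_52_P617512 in Per3 4/4 hypothalamus (0.041). With slide as a random block, flanking calls in hypothalamus were 0 and neighbour calls in Per3 5/5 hypothalamus 7 (11.8% of all genes). Median centring gave 1 flanking call in Per3 5/5 cortex (11.6% of all probes), neighbour calls of 4 there and of 6 and 7 in hypothalamus of the 5/5 and 4/4 lines (12.5%, 20.1% and 15.2% of all genes), Per3 at 0.35 in Per3 4/4 cortex and Park7 between tissues at -0.0039. Quantile normalization gave 2 flanking calls in Per3 5/5 hypothalamus (18.2% of all probes), Per3 at 0.35 in Per3 4/4 cortex and Camta1 A_52_P617512 at 0.00023 in Per3 5/5 hypothalamus. Normexp moved the median of all probes in Per3 4/4 cortex from 0.02 to 0.23. It gave 1 and 5 flanking calls in Per3 5/5 and Per3 4/4 cortex (31.4% and 54.7% of all probes) and 0 in hypothalamus (6.25% and 6.09%), neighbour calls of 20 in Per3 4/4 cortex (46.8% of all genes) and 3 and 7 in hypothalamus (7.77% and 6.76%), and Per3 at 0.32 in Per3 5/5 hypothalamus. Without a filter, flanking calls in hypothalamus were 0 and 1 (11.2% and 8.57% of all probes) and neighbour calls in Per3 4/4 hypothalamus 7 (11.9% of all genes). The methods' t-test gave 5 flanking calls in Per3 4/4 cortex (29.8% of all probes), 0 and 4 in hypothalamus (13.2% and 20.5%), and Per3 at 0.41 in Per3 4/4 cortex (adjusted p = 0.0698). Mice of different genotype with the same replicate number were not paired by the labels, and their deviations correlated between -0.42 and 0.52 over all comparisons (0.033 to 0.34 between Per3 5/5 and WT hypothalamus). Replicates 1 to 4 of the knock-in lines, and replicate 5 of Per3 4/4 and WT, also shared a slide. With the replicate block, flanking calls in Per3 5/5 cortex were 1 (12.4% of all probes), Per3 in Per3 4/4 cortex was 0.41 (adjusted p = 0.0569), and all-probe calls between the knock-in lines were 0 and 2. Leaving out each mouse, flanking calls ran from 0 to 3 and 3 to 4 in cortex and 0 to 1 and 0 to 3 in hypothalamus (Per3 5/5, then Per3 4/4), neighbour calls from 7 to 11, 9 to 13, 7 to 11 and 5 to 13, Per3 from 0.64 to 0.74, 0.34 to 0.48 and 0.39 to 0.51 in Per3 5/5 cortex, Per3 4/4 cortex and Per3 5/5 hypothalamus, and Camta1 A_52_P617512 in Per3 5/5 hypothalamus from -0.088 to 0.022. The cortex calls of Camta1 and Thap3 in Per3 4/4 were kept without each of the 16 mice, and Camta1 A_52_P434769 joined them without Per3 4/4 replicate 5 (-0.44). For the probes not described singly, 61 of 465 values changed sign, 1 of them called, Tnfrsf9 A_52_P210511 in Per3 4/4 cortex (from -0.11 to 0.69 under normexp). Another 5 of the 465 kept their sign and passed the threshold, which they had not passed before. With each mouse left out, 5 of 624 values did the same. The cause of these changes was not tested. An alternative that names probes by the files' own gene column was not run.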
